A study of Mus musculus with 12 samples.

Results

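Toll-like receptors are membrane sensors of microbial products and of molecules released by damaged tissue. The genes of this system described here were measured in primary mouse chondrocytes, the cells that make cartilage matrix. They are the receptors Tlr1, Tlr2, Tlr3, Tlr4 and Tlr6, the co-receptor Cd14, the adaptors Myd88 and Ticam1, and the receptor-proximal kinase family members Irak2 and Irak3. They were found by their Ensembl identifiers, which gave 10 of the 57010 identifiers in the deposited count tables. Of the 10 genes, 9 passed the filter on low counts, and Myd88 was listed at 0 in every library. All of the 9 but Tlr1 reached the filter's level of 0.531 CPM in each of the 12 libraries.

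The series asked how the sirtuin SIRT5, which strips acyl marks such as malonyl from lysine residues, acts in chondrocytes. There were 12 libraries in 3 groups of 4: those whose treatment label reads Control, those labelled WT (here SIRT5_WT), and those labelled for the mutant plasmid SIRT5F101L (here SIRT5_F101L). The wild-type plasmid was read as one for SIRT5. All 12 carry the genotype label Wild type. What the control cells received, the vector, its promoter, the time after transfection, and the strain, age and number of donor mice are not given in the sources used here. Nothing says that the libraries of a group came from separate cultures, so the p-values measure the spread between these libraries, which may be technical.

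Most Toll-like receptors signal through the adaptor MyD88, which recruits IRAK kinases and leads to NF-kappaB and inflammatory cytokines. TLR3 uses the adaptor TRIF, the product of Ticam1, which leads to interferon regulatory factors. TLR4 uses both, and takes up lipopolysaccharide through CD14 and MD-2. In osteoarthritic cartilage, chondrocytes carry TLR2 and TLR4 and respond through them to matrix fragments and alarmins with cytokines and matrix-degrading enzymes.

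The libraries held 15095357 to 24242139 counts each. The 11 chondrocyte markers examined were all detected, with a summed level of 9282 to 11636 CPM (read counts scaled to library size by the TMM method) in Control, 2842 to 2954 in SIRT5_WT and 2313 to 2558 in SIRT5_F101L. The 6 fibroblast and synovium markers summed higher, to 18345 to 21798 CPM, 7651 to 8735 and 7908 to 8795 in the same groups. These sums do not give the shares of cell types. Sirt5 itself was low, with 0.688 ± 0.169 CPM in Control, 0.384 ± 0.229 in SIRT5_WT and 0.721 ± 0.346 in SIRT5_F101L (SD, n = 4), and no rise with either plasmid was detectable. It therefore gives no check of the labels. A single library of each plasmid group stood apart on the second principal component. SIRT5_F101L replicate 1 scored 20.3, against -23.5 to -17.0 in the other SIRT5_F101L libraries, and so fell with SIRT5_WT replicates 2 to 4, which scored 12.5 to 20.1. SIRT5_WT replicate 1 scored -1.07. Results that turn on these 2 libraries are given with and without them. Genes that every cell uses, such as B2m, Rpl35 and Eif2s2, were listed at 0 in all 12 libraries, so a gene listed at 0 here cannot be read as silent.

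Tlr2, Tlr4 and Cd14, the receptors and co-receptor for bacterial lipoproteins and lipopolysaccharide, rose with either plasmid. Tlr4 and Tlr2 were a little over 1 log2 unit above Control, and Cd14 a little over 2. Tlr6 and the TRIF adaptor gene Ticam1 fell with both plasmids. Tlr3, Irak2 and Irak3 rose with both. Of the 9 genes tested, 6 were called higher and 3 lower in SIRT5_WT than in Control, at an adjusted p under 0.05 in edgeR's quasi-likelihood test over 14253 genes. Over all genes tested, 28.7% were called higher and 28.1% lower in that comparison. In SIRT5_F101L against Control, 6 were called higher, 2 lower, and Tlr1 was not called. Over all genes tested, 30% were called higher and 30.7% lower there. A majority of all genes was thus called against Control, and the members' counts are to be read against that. The median log2 fold change of the 9 genes was 0.36 in SIRT5_WT and 0.66 in SIRT5_F101L, where the medians over all genes tested were -0.01 and -0.02. Without Tlr1, the median of the other 8 was 0.64 and 0.79. The groups did not overlap for 7 of the 9 genes in SIRT5_WT, where 53.5% of all genes tested showed no overlap, and for 8 in SIRT5_F101L, where 51.3% did. Both comparisons use the same 4 Control libraries.

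**Figure D1:**
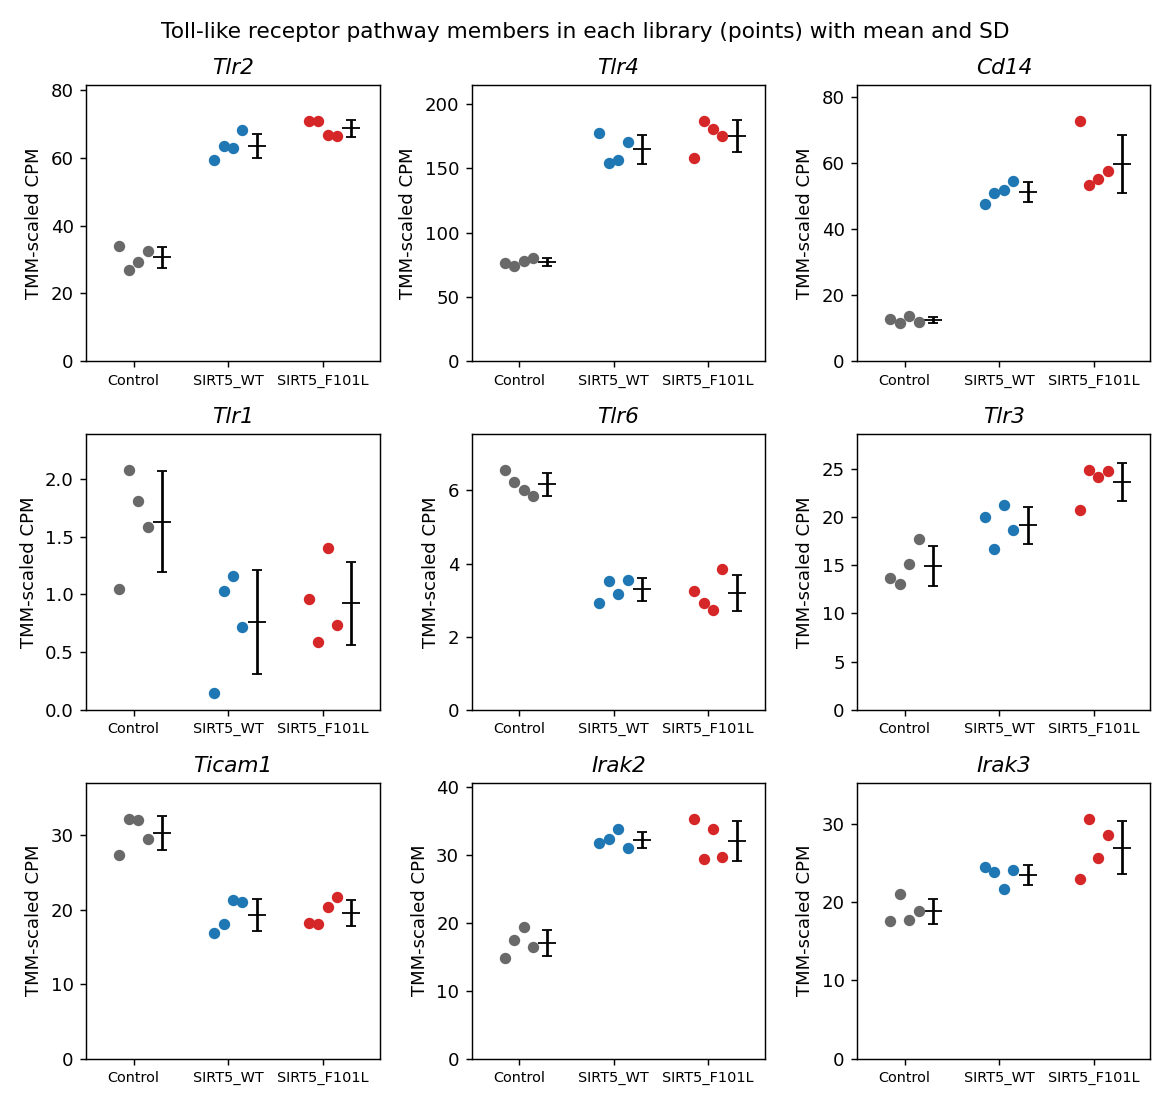
TMM-scaled CPM of the 9 genes that passed the filter, 1 panel a gene, in each of the 4 libraries of Control, SIRT5_WT and SIRT5_F101L (points in order of replicate number), with the group mean and SD (bar) beside them. Tlr2, Tlr4, Cd14, Irak2 and, narrowly, Irak3 sit higher in all 8 plasmid libraries than in any Control library. Tlr6 and Ticam1 sit lower, and SIRT5_F101L replicate 1 holds the highest Cd14 value, 72.8.

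Tlr2 (ENSMUSG00000027995, chromosome 3) encodes the receptor for bacterial lipoproteins, which works as a heterodimer with TLR1 or TLR6. It stood at 33.9, 26.9, 29.3 and 32.3 CPM in Control replicates 1 to 4, at 59.5, 63.4, 63.0 and 68.3 in SIRT5_WT, and at 70.9, 70.8, 66.7 and 66.3 in SIRT5_F101L. Every plasmid library was above every Control library, and the plasmid groups overlapped each other. The mean rose from 30.6 ± 3.13 CPM in Control to 63.5 ± 3.60 in SIRT5_WT (log2 fold change 1.05, SE 0.08, adjusted p = 2.41e-10) and to 68.7 ± 2.50 in SIRT5_F101L (1.17, SE 0.08, adjusted p = 4.42e-11; SD, n = 4).

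Tlr4 (ENSMUSG00000039005, chromosome 4), the lipopolysaccharide receptor, was the most abundant of these receptors per length of exon. Its levels were 75.9, 73.6, 77.9 and 80.4 CPM in Control, 178, 154, 156 and 171 in SIRT5_WT, and 158, 187, 181 and 175 in SIRT5_F101L. The Control libraries lay within a narrow band, far from the 8 plasmid libraries. The mean was 77.0 ± 2.87 CPM in Control, 165 ± 11.4 in SIRT5_WT and 175 ± 12.6 in SIRT5_F101L (SD, n = 4). The log2 fold change was 1.10 (SE 0.07, adjusted p = 1.70e-11) in SIRT5_WT and 1.19 (SE 0.07, adjusted p = 4.68e-12) in SIRT5_F101L.

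The ratio of Tlr2 to Tlr4 counts within a library, which no library scaling can alter, was 0.447, 0.366, 0.376 and 0.403 in Control, 0.335, 0.412, 0.403 and 0.400 in SIRT5_WT, and 0.450, 0.379, 0.370 and 0.379 in SIRT5_F101L. The 3 groups overlapped. The log2 ratio differed from Control by -0.04 in SIRT5_WT and -0.01 in SIRT5_F101L, and neither difference passed an exact two-sided permutation test (adjusted p = 0.891 and 0.943 over 6 such tests). With 4 libraries against 4 the smallest p is 0.0286, so a missed threshold here does not show that the ratio was stable.

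Cd14 (ENSMUSG00000051439), the co-receptor that hands lipopolysaccharide to TLR4 and also assists TLR2, had the highest fold changes among the 9 genes. Its levels were 12.8, 11.4, 13.7 and 11.8 CPM in Control, 47.5, 50.9, 51.9 and 54.7 in SIRT5_WT, and 72.8, 53.3, 55.3 and 57.7 in SIRT5_F101L. The Control values stood clear of the rest, and replicate 1 of SIRT5_F101L was above the other 11 libraries. Cd14 rose from 12.4 ± 1.02 CPM in Control to 51.3 ± 2.96 in SIRT5_WT (log2 fold change 2.05, SE 0.10, adjusted p = 5.12e-13) and 59.8 ± 8.85 in SIRT5_F101L (2.27, SE 0.10, adjusted p = 8.85e-14; SD, n = 4). Ly96, which encodes the TLR4 partner MD-2, did not pass the test in either comparison, with 14.7 ± 2.80 CPM in Control, 15.5 ± 1.98 in SIRT5_WT and 16.7 ± 2.44 in SIRT5_F101L (adjusted p = 0.647 and 0.245).

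Tlr6 (ENSMUSG00000051498) and Tlr1 (ENSMUSG00000044827), both on chromosome 5, encode the partners with which TLR2 recognises diacylated and triacylated lipoproteins. Tlr6 stood at 6.56, 6.24, 6.02 and 5.85 CPM in Control, 2.91, 3.53, 3.18 and 3.55 in SIRT5_WT, and 3.26, 2.92, 2.73 and 3.85 in SIRT5_F101L. All 8 plasmid libraries were below the 4 Control libraries, the reverse of Tlr2. Tlr6 fell from 6.17 ± 0.310 CPM to 3.29 ± 0.305 in SIRT5_WT (log2 fold change -0.91, SE 0.15, adjusted p = 4.39e-05) and 3.19 ± 0.494 in SIRT5_F101L (-0.95, SE 0.15, adjusted p = 2.21e-05; SD, n = 4).

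Tlr1 was close to the limit of detection, so its call is a weak one. Its raw counts were 18, 41, 34 and 29 in Control, 3, 16, 20 and 14 in SIRT5_WT, and 18, 9, 35 and 13 in SIRT5_F101L. The groups overlapped in both comparisons with Control, and SIRT5_WT replicate 1 was the lowest library. The log2 fold change was -1.13 (SE 0.42, adjusted p = 0.0271) in SIRT5_WT and -0.78 (SE 0.40, adjusted p = 0.0987) in SIRT5_F101L. The SIRT5_WT call was lost without Control replicate 2 (-0.99, adjusted p = 0.0812), Control replicate 3 (-1.08, 0.0595), SIRT5_WT replicate 1 (-0.76, 0.0863) or SIRT5_WT replicate 4 (-1.11, 0.0582). It was also lost without replicate 1 of both plasmid groups (-0.76, adjusted p = 0.0816). The SIRT5_F101L value passed the threshold without SIRT5_WT replicate 1 (-0.78, adjusted p = 0.0463) or SIRT5_F101L replicate 3 (-1.08, adjusted p = 0.0495).

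Markers of macrophages and other leukocytes, cells in which Tlr1 and Tlr6 are also expressed, moved in the same direction as these receptors. The summed level of the 18 markers was 212 to 251 CPM in Control, 98.4 to 111 in SIRT5_WT and 97.1 to 125 in SIRT5_F101L. Of the 13 that were tested, 12 were called lower in SIRT5_WT and 11 in SIRT5_F101L, among them Ptprc (log2 fold change -1.28 and -1.40), the macrophage marker Adgre1 (-2.03 and -1.89) and Csf1r (-0.92 and -0.72). Of the 13, 10 reached the filter's level in every library. Lyz2 alone made up much of the summed level. Its mean was 125 of 236 CPM in Control, 60.5 of 105 in SIRT5_WT and 61.1 of 109 in SIRT5_F101L. Ly6g, a neutrophil marker at 0 to 2 counts in Control and 6 to 17 in the plasmid libraries, was called higher in both. It reached the filter's level in no Control library and in 5 plasmid libraries, and so passed only through the groups where it is high. Itgam and Cd3e were listed at 0. The part of these cells in the lower values of Tlr1 and Tlr6 was not tested. In RNA from a whole culture, fewer cells of a type and less RNA per cell cannot be told apart. Tlr2, Tlr4 and Cd14, which leukocytes also express, rose while 12 of these markers were called lower in SIRT5_WT.

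**Figure D2:**
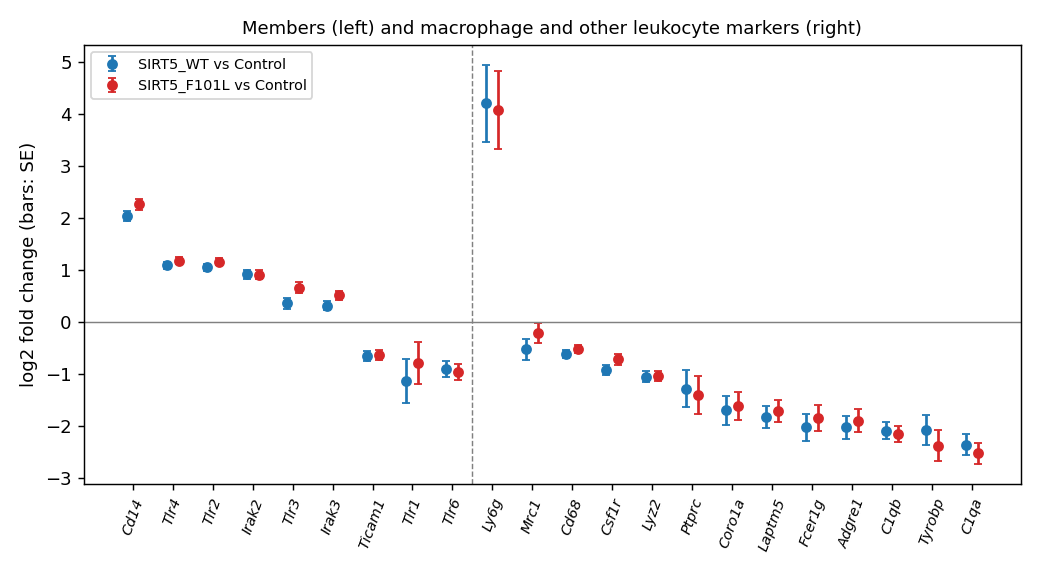
Fitted log2 fold change against Control (vertical axis; bars show the SE) of the 9 genes that passed the filter, left of the dashed line, and of the 13 macrophage and other leukocyte markers tested, right of it, for SIRT5_WT (blue) and SIRT5_F101L (red). Tlr1, Tlr6 and Ticam1 lie below 0 with all the leukocyte markers except Ly6g, whereas Cd14, Tlr4 and Tlr2 lie above 0.

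Tlr3 (ENSMUSG00000031639, chromosome 8) encodes the endosomal receptor for double-stranded RNA. Its levels were 13.7, 13.1, 15.1 and 17.8 CPM in Control, 20.0, 16.7, 21.2 and 18.7 in SIRT5_WT, and 20.7, 24.9, 24.1 and 24.8 in SIRT5_F101L. The lowest SIRT5_WT library lay below the highest Control library, while all SIRT5_F101L libraries stood above Control. Tlr3 rose from 14.9 ± 2.09 CPM to 19.1 ± 1.94 in SIRT5_WT (log2 fold change 0.36, SE 0.11, adjusted p = 0.00688) and 23.6 ± 1.95 in SIRT5_F101L (0.66, SE 0.11, adjusted p = 1.88e-05; SD, n = 4). An overlapping predicted gene, Gm45542, shares 7.32% of the Tlr3 exon bases in GENCODE M21, and strand use in counting is not given in the sources used here.

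Ticam1 (ENSMUSG00000047123, chromosome 17) encodes TRIF, the adaptor of TLR3 and of the interferon branch of TLR4. It stood at 27.4, 32.2, 32.1 and 29.6 CPM in Control, 16.9, 18.0, 21.3 and 21.0 in SIRT5_WT, and 18.2, 18.1, 20.4 and 21.7 in SIRT5_F101L. No plasmid library reached the lowest Control library. The mean fell from 30.3 ± 2.29 CPM to 19.3 ± 2.16 in SIRT5_WT (log2 fold change -0.65, SE 0.09, adjusted p = 6.61e-06) and 19.6 ± 1.76 in SIRT5_F101L (-0.63, SE 0.09, adjusted p = 9.02e-06; SD, n = 4). The adaptor gene thus moved opposite to Tlr3 and Tlr4, the receptors that use its product.

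Of the other adaptors, Myd88 (ENSMUSG00000032508, chromosome 9) was listed at 0 in all 12 libraries and gave no value. Tirap, which bridges MyD88 to TLR2 and TLR4, rose from 10.8 ± 0.772 CPM in Control to 13.1 ± 0.901 in SIRT5_WT (log2 fold change 0.27, adjusted p = 0.0378) and 15.2 ± 1.85 in SIRT5_F101L (0.49, adjusted p = 0.000476). Ticam2, which bridges TRIF to TLR4, was under the filter on low counts, at 1 to 22 counts a library.

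Irak2 (ENSMUSG00000060477, chromosome 6) encodes an IRAK family member of the complex that forms on MyD88. Its levels were 14.9, 17.4, 19.4 and 16.4 CPM in Control, 31.8, 32.4, 33.8 and 31.1 in SIRT5_WT, and 35.4, 29.4, 33.8 and 29.8 in SIRT5_F101L. The plasmid libraries shared a range well above that of Control. Irak2 rose from 17.0 ± 1.89 CPM to 32.3 ± 1.16 in SIRT5_WT (log2 fold change 0.92, SE 0.09, adjusted p = 3.01e-08) and 32.1 ± 2.96 in SIRT5_F101L (0.91, SE 0.09, adjusted p = 2.99e-08; SD, n = 4). Its counts are uncertain, since 37.0% of its longest transcript has copies of at least 95% identity in transcripts of other genes.

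Irak3 (ENSMUSG00000020227, chromosome 10) encodes IRAK-M, which dampens signalling downstream of the receptors. It stood at 17.5, 21.1, 17.7 and 18.9 CPM in Control, 24.4, 23.8, 21.7 and 24.1 in SIRT5_WT, and 23.0, 30.7, 25.6 and 28.6 in SIRT5_F101L. The lowest plasmid library, at 21.7, lay just above the highest Control library. Irak3 rose from 18.8 ± 1.63 CPM to 23.5 ± 1.25 in SIRT5_WT (log2 fold change 0.32, SE 0.10, adjusted p = 0.00760) and 27.0 ± 3.37 in SIRT5_F101L (0.51, SE 0.10, adjusted p = 0.000103; SD, n = 4). Overlapping genes, Tmbim4 and Gm47009, share 5.98% of its exon bases.

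The activating and the dampening family member were compared within libraries. The ratio of Irak2 to Irak3 counts was 0.848, 0.827, 1.09 and 0.870 in Control, 1.30, 1.36, 1.56 and 1.29 in SIRT5_WT, and 1.54, 0.960, 1.32 and 1.04 in SIRT5_F101L. SIRT5_WT was above Control without overlap, and SIRT5_F101L overlapped it. The log2 ratio was higher by 0.60 in SIRT5_WT (exact two-sided permutation p = 0.0286, the smallest that 4 against 4 libraries allow; adjusted p = 0.171 over 6 tests) and by 0.40 in SIRT5_F101L (p = 0.0857, adjusted p = 0.257). Neither passed after adjustment. The SIRT5_WT ratio could not pass beside the other tests, since even the smallest possible p was adjusted to 0.171. The missed threshold is therefore set by the number of libraries and tests, and does not show that either ratio was unchanged.

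Levels of different genes were set side by side as CPM per kilobase of exon, counting all annotated exon bases of a gene. That length exceeded the longest transcript for Tlr4 (5556 against 4077 bases) and Irak2 (4412 against 3196) more than for Cd14 (1732 against 1641). The order by transcript length was not computed, and places such as those of Cd14 and Tlr4 hold for this measure only. In Control the order was Tlr4 (13.9), Tlr2 (10.2), Ticam1 (10.1), Cd14 (7.17), Irak3 (5.12), Irak2 (3.86), Tlr3 (2.86), Tlr6 (1.65) and Tlr1 (0.487). The ranges of Tlr2 and Ticam1 overlapped, as did those of Irak2 and Tlr3. With SIRT5_WT, Cd14 (29.6) drew level with Tlr4 (29.6), and both stood above Tlr2 (21.1), which Cd14 had been below in Control. Irak2 (7.31), Ticam1 (6.45) and Irak3 (6.39) followed. Ticam1 overlapped both of the others, Irak2 lay wholly above Irak3, and below them came Tlr3 (3.67), Tlr6 (0.883) and Tlr1 (0.228). With SIRT5_F101L the order began with Cd14 (34.5) and Tlr4 (31.5), whose ranges overlapped, then Tlr2 (22.8). Irak3 (7.33), Irak2 (7.28) and Ticam1 (6.54) had overlapping ranges, and Tlr3 (4.54), Tlr6 (0.856) and Tlr1 (0.276) came last. Ticam1, level with Tlr2 in Control, was below it in both plasmid groups.

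The SIRT5_F101L and SIRT5_WT libraries were then compared with each other, which asks what the mutation changes. None of the 9 genes was called, in edgeR or in DESeq2. Over all genes tested, edgeR called 0.0281% higher and 0.014% lower, 0.0421% in all, so a count of 0 among 9 is close to the background. The plasmid groups overlapped for all 9 genes, and did not for 4.02% of all genes tested. At an unadjusted p under 0.05, edgeR gave 2 of the 9 genes, Tlr3 and Cd14, where 11.9% of all genes fell under it. The 95% intervals, each for 1 gene and unadjusted, describe the difference between these libraries, with the libraries that stood apart included. The log2 difference was 0.11 for Tlr2 (-0.04 to 0.26), 0.09 for Tlr4 (-0.05 to 0.22) and 0.22 for Cd14 (0.03 to 0.41, with an adjusted p of 0.371). The Cd14 difference was 0.11 without SIRT5_F101L replicate 1 (adjusted p = 0.324). For Tlr6 it was -0.05 (-0.39 to 0.29), for Ticam1 0.02 (-0.18 to 0.22) and for Tlr1 0.35 (-0.57 to 1.27), an interval too wide to bound much. For Irak2 it was near 0, with an interval of -0.19 to 0.18.

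Tlr3 had a log2 difference of 0.30 between the plasmids (95% interval 0.09 to 0.52, edgeR adjusted p = 0.360), and Irak3 one of 0.19 (-0.0023 to 0.39, adjusted p = 0.423). Neither was called with all libraries. SIRT5_F101L replicate 1 had the lowest Tlr3 and the lowest Irak3 level of its group. Without it, Tlr3 was called higher in SIRT5_F101L (0.36, adjusted p = 0.0151), as was Irak3 (0.26, adjusted p = 0.0472), and over all genes tested 6.66% were called higher and 8.58% lower. Without SIRT5_WT replicate 1 alone, edgeR called no member and 0% of all genes, while 1 member (Tlr3) and 15.1% of all genes had an unadjusted p under 0.05. With both of these libraries left out, Tlr3 (0.38, adjusted p = 0.0111), Irak3 (0.28, adjusted p = 0.0363) and Tlr4 (0.18, adjusted p = 0.0334) were called higher and none lower, where 9.26% of all genes were called higher and 10.8% lower. The libraries were left out after their positions had been seen, so these calls describe how much the comparison turns on them. Each gene's log2 CPM, less its mean over the 12 libraries, was also fitted on log2 exon length in each library. The slope set these libraries apart from the rest of their groups. In Control it was -0.0528 to -0.0331. It was -0.0525 in SIRT5_F101L replicate 1 and 0.0671 to 0.0854 in the other SIRT5_F101L libraries, and it was 0.0421 in SIRT5_WT replicate 1 and -0.0324 to -0.00139 in the other SIRT5_WT libraries. The part of this in the values of Tlr3, Irak3 and Tlr4 was not tested. The log2 ratio of Irak2 to Irak3 differed by -0.20 between the plasmids (exact permutation p = 0.314, adjusted p = 0.629), and that of Tlr2 to Tlr4 by 0.03 (adjusted p = 0.891).

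**Figure D3:**
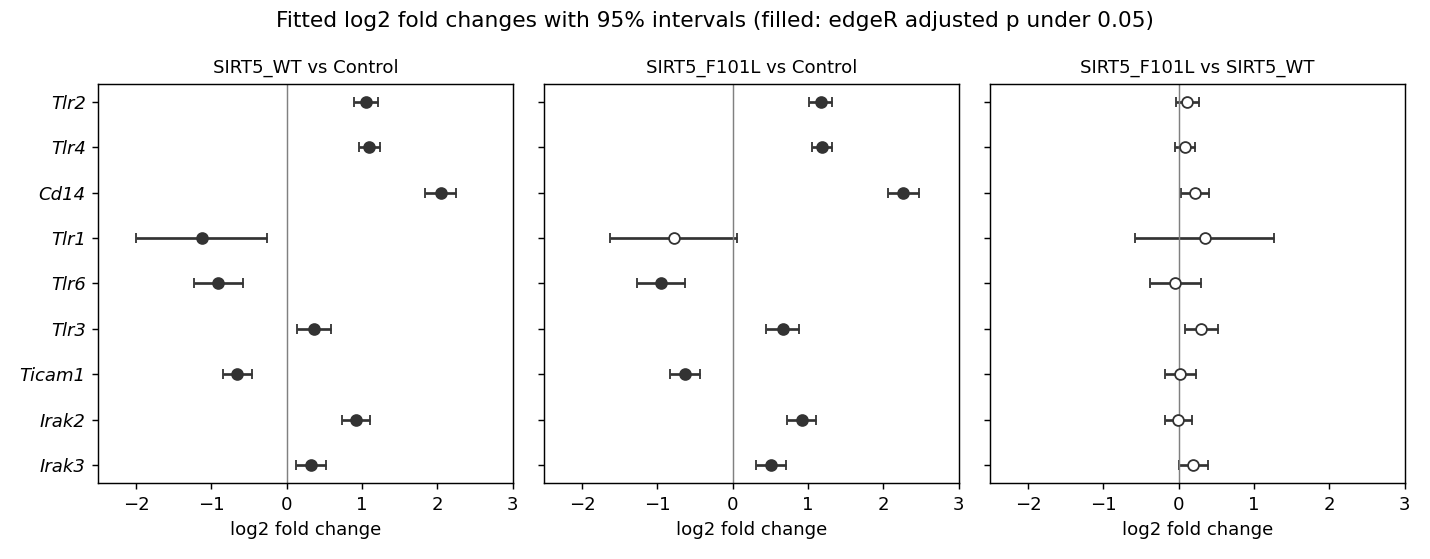
Fitted log2 fold changes (horizontal axis) with 95% intervals for the 9 genes in the 3 comparisons, 1 panel a comparison; filled points passed an edgeR adjusted p of 0.05. All points but Tlr1 in SIRT5_F101L are filled against Control, and none is filled between the plasmids, where Tlr1 has the widest interval, -0.57 to 1.27.

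The sequence before the start of each gene was searched for NF-kappaB, interferon-response-like (GAAA, any 2 bases, GAAA) and AP-1 (TGANTCA) motifs on both strands, in the 250 bases before each start of the RefSeq promoter table (GRCm38.p6), which held 8 of the 10 genes (not Tlr4 and Cd14) in 11 windows. An NF-kappaB motif was found in the windows of Tlr2 and Tlr3, and in no window of Irak2, Irak3, Ticam1, Tlr1, Tlr6 or Myd88. Such a motif stands in 3.9% of all 32851 windows. The interferon-response-like motif was found for Tlr6, as 2 overlapping copies, and for Myd88, and stands in 2.98% of all windows. No window of these genes held the AP-1 motif, which stands in 6.75%. A match is a description of the letters and no measure of binding. The stretches with the matches of the 3 measured receptors are given here, 5′ to 3′ on the gene's strand, with the matched bases in capitals.
Tlr2, chr3:83841768-83841858, minus strand: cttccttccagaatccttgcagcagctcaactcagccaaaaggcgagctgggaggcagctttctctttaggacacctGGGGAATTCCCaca
Tlr3, chr8:45410572-45410601, minus strand: agttgtttctGGGAGTTTCCtgcttttgag
Tlr6, chr5:64959260-64959289, minus strand: ctattctTTTCTCTTTCACTTTCtgtttga
The Tlr2 match begins 173 bases before the start and is 2 overlapping readings of 1 run. Only the reading that begins 172 bases before the start is a palindrome. The Tlr3 match begins 211 bases before the start and lies in an annotated exon. The Tlr6 matches read on the opposite strand of the motif and begin 116 and 110 bases before the start.

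The rest of the pathway was described from lists of 97 further genes, of which 76 were tested. Of these, 69 reached the filter's level in every library. Among the 69, 41 were called higher and 11 lower than in Control in SIRT5_WT, and 39 and 12 in SIRT5_F101L, with a median log2 fold change of 0.28 and 0.33. Over all 76, of which some fell short of that level in some libraries, the counts were 43 and 15, and 42 and 16. None was called between the plasmids. The lists' counts stand beside the same background as those of the receptors, with 56.8% of all genes called in SIRT5_WT and 60.7% in SIRT5_F101L.

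Among the other Toll-like receptors, Tlr5, the flagellin receptor, was the only one of 7 to pass the filter, and it was not called (log2 fold change -0.38 and -0.34, adjusted p = 0.195 and 0.242). Tlr7, Tlr8, Tlr11 and Tlr13 were listed at 0. Tlr9, the receptor for bacterial DNA, had at most 9 counts in a library, and Tlr12 at most 5.

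Of the 12 co-receptors, adaptors and receptor chaperones, 10 were tested, with 2 called higher and 3 lower in SIRT5_WT and 2 and 4 in SIRT5_F101L. Hsp90b1, the chaperone gp96 that folds Toll-like receptors, rose by 0.28 and 0.44 on the log2 scale, and Tirap is described above. Cd180, a receptor homologue of B cells and myeloid cells, had log2 fold changes of -2.08 and -2.01, and Pik3ap1, an adaptor known from B cells and macrophages, of -2.75 and -2.34. Each reached the filter's level in all 4 Control libraries and in 4 of the 8 plasmid libraries. Among the 7 genes of this list that reached the filter's level in every library, 2 were called higher and 0 lower in SIRT5_WT, and 2 and 1 in SIRT5_F101L, with medians of 0.08 and 0.14. The leukocyte markers also fell, and their part in the values of Cd180 and Pik3ap1 was not tested.

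Of the 20 signalling kinases and ubiquitin ligases, 16 were tested, with 8 called higher and 1 lower in SIRT5_WT and 8 and 2 in SIRT5_F101L. Map3k8, the kinase TPL2 that feeds the ERK pathway, had log2 fold changes of 1.44 and 1.56, and Traf3, the TRIF-branch ligase, of 0.87 and 1.04. Traf6, the ligase on which MyD88 signals converge, rose by 0.39 (adjusted p = 0.00201) and 0.54 (adjusted p = 6.83e-05). Irak4, the first kinase of the MyD88 complex, was not called (-0.08 and -0.17, adjusted p = 0.392 and 0.0800), and Irak1 was listed at 0. The lowest called values were small, with Tab1 at -0.32 and -0.40 and Tradd at -0.31 in SIRT5_F101L.

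Negative regulators split. Of 14 tested, 8 were called higher and 5 lower with each plasmid. Il1rl1, the interleukin-33 receptor that can sequester adaptors, had log2 fold changes of 1.83 and 2.04, and Tnfaip3, the ubiquitin-editing enzyme A20, of 1.82 and 1.85. Trafd1, an inhibitor of TRAF6 signalling, fell from 86.0 CPM to 40.2 and 39.0 (-1.10 and -1.14), and Socs1, an inhibitor of cytokine signalling, had -0.52 and -0.61.

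The 10 transcription factors of the pathway were all tested, and 6 were called higher and 3 lower with each plasmid. Irf7, which drives type I interferon genes, went from 144 CPM in Control to 453 and 450 (log2 fold change 1.65 with either plasmid), and Nfkb1, the p105/p50 subunit of NF-kappaB, rose by 0.94 and 1.06. Irf3, a factor activated downstream of TRIF, fell by 0.45 and 0.62, in the same direction as Ticam1. Irf8, a myeloid and lymphoid factor, had -1.52 and -1.45.

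Among 10 tested endogenous ligands, 6 were called higher and 2 lower in SIRT5_WT, and 7 and 1 in SIRT5_F101L. S100a8 and the heat-shock gene Hspa1a reached the filter's level in 1 and 3 of the 4 Control libraries and in all 8 plasmid libraries, so they passed it only with the plasmid libraries. Among the other 8 the counts were 5 and 2, and 5 and 1. The acute-phase protein gene Saa3 went from 1.24 CPM in Control to 306 and 321, and the alarmin gene S100a8 from 0.386 to 48.6 and 57.3. S100a9, its usual partner, and the matrix proteoglycan gene Bgn were listed at 0. Fn1, whose fragments act on TLR4, was called lower (-0.94 and -0.83).

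Readouts of the pathway were grouped by the branch chiefly known to induce them. Of the MyD88-branch targets, 7 of 11 were tested and were called higher with each plasmid. The filter fixed part of this count. Ccl20, at 0 to 10 counts in Control and 27 to 52 with a plasmid, passed only through the plasmid groups, and Tnf, at 6 to 19 counts in Control and 0 to 5 with a plasmid, was under the filter. The other 6 tested genes reached the filter's level in every library, with a median log2 fold change of 4.60 and 4.86. The tested targets ran from Cxcl2, a neutrophil chemokine (1.91 and 2.04), to Il6 (5.50 and 5.82) and Lcn2, an iron-binding protein (6.16 and 6.35). Il1b and Il12b were also under the filter, and Ccl2 was listed at 0. Of the TRIF and interferon targets, 8 of 10 were tested, with 6 called higher and 1 lower in SIRT5_WT and 4 and 1 in SIRT5_F101L. Their median was 0.82 and 0.80. Ccl5, a T-cell chemokine (6.96 and 6.83), and Oasl1, an interferon-stimulated gene (6.97 and 6.77), were far above Control, whereas Ifit3, another interferon-stimulated gene, fell from 303 CPM to 175 and 173 (-0.79 and -0.81). Ifnb1 was under the filter and Cxcl10 was listed at 0. These targets also respond to other cytokine and RNA-sensing pathways.

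**Figure D4:**
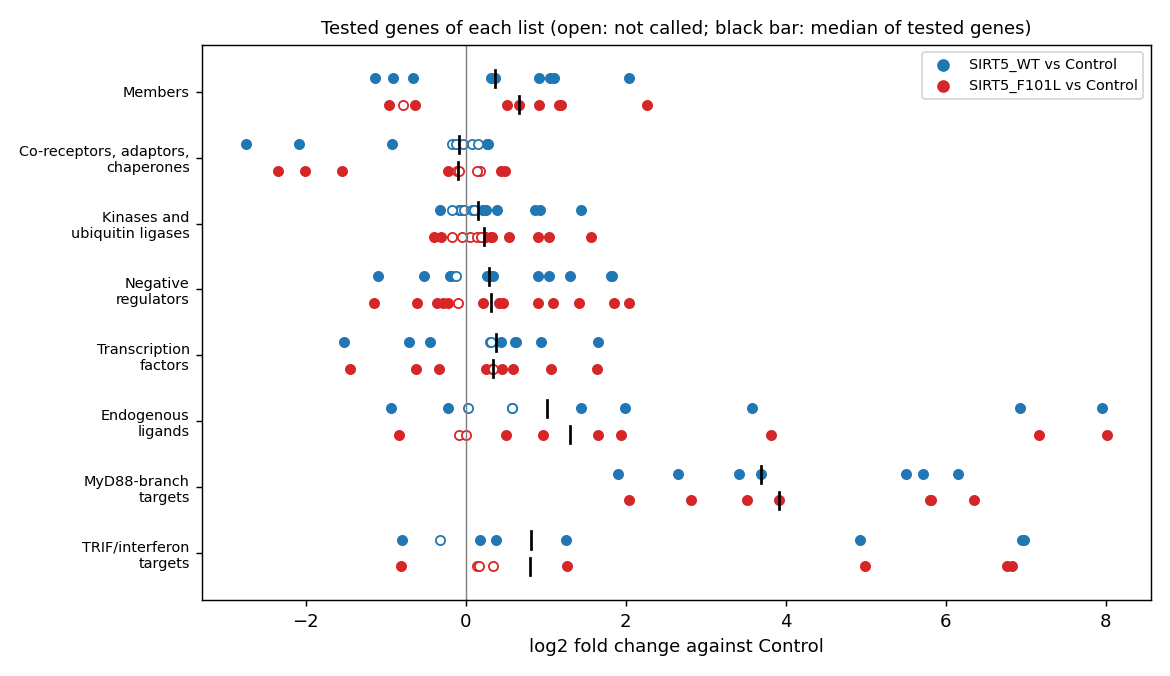
Log2 fold change against Control (horizontal axis) of every tested gene of the members and of 7 pathway lists, for SIRT5_WT (blue) and SIRT5_F101L (red); open points were not called by edgeR and black bars are medians of the tested genes. The tested MyD88-branch targets, which leave out Tnf as under the filter and include Ccl20, which passed only through the plasmid groups, lie above 0, while the co-receptors and adaptors spread around 0. Their median is -0.08 and -0.10 over the 10 genes tested, and 0.08 and 0.14 over the 7 genes at its level in every library.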

How the data were processed

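Counts per gene, as whole numbers and not normalized, were deposited by the authors for each of 12 libraries of poly(A)-selected RNA sequenced as read pairs, per the labels' protocols. The submitters' processing notes name FastQC 0.11.9, HISAT2 2.2.1, HTSeq 2.0.2 and DESeq2 1.38.3, and the build GRCm39, without their roles. Symbols were matched to 52029 of 57010 identifiers. The reference used for exon lengths, overlaps and copies (BLAST) was GENCODE M21 on GRCm38, a different build, so gene coordinates are not given. The sequences and their coordinates come from RefSeq's GRCm38.p6 promoter table.

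The test was edgeR's quasi-likelihood test (4.0.16, R 4.3.3) with TMM scaling and edgeR's filter by group, on all 12 libraries (9 residual degrees of freedom), with Benjamini-Hochberg adjustment over 14253 genes and a threshold of 0.05, two-sided. The biological coefficient of variation was 9.18%. SEs are the log2 fold change divided by the root of F. The procedure was tested on simulated data. Ratios of raw counts (offset 0.5) were tested by exact permutation over 70 arrangements and adjusted over 6 tests. Another planned ratio, Myd88 to Ticam1, was not computed, because Myd88 was listed at 0.

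Each library was left out in turn, and, as a choice made after seeing the data, replicate 1 of both plasmid groups together. Other alternatives were DESeq2 (1.42.0), scaling by RLE or by upper quartiles, filters that kept genes with any count or with a mean of at least 1 CPM, edgeR's robust prior, and models of only the 8 libraries of a comparison. The members and lists were chosen with earlier results of these data known. Named genes are the members, in each pathway list up to 2 highest and 2 lowest called fold changes in SIRT5_F101L against Control, and Ly96, Tirap, Ticam2, Irak1, Irak4, Traf6, Tlr5, Tlr7 and Tlr9. Others were named after their values were seen, to account for genes that gave no value, to show the end of a range or to show the main part of a sum. The marker lists of other cell types gave, in SIRT5_WT and SIRT5_F101L against Control, 0 calls for endothelium (4 tested), 2 lower for osteoblasts (3 tested), 2 lower for skeletal muscle (2 tested; 1 of the lower calls in each of these lists, Ibsp and Tnnt3, passed the filter only through Control), 1 lower for osteoclasts (2 tested) and 3 higher and 3 lower for fibroblasts and synovium (6 tested). Of 11 chondrocyte markers, 9 were lower with each plasmid, and 2 (Acan and Hapln1) were higher in SIRT5_WT and 1 (Hapln1) in SIRT5_F101L.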

Additional observations from a re-analysis of the deposited data

Results flagged for a closer look

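Among 33 groups of 4 values screened, 3 held 1 library far from the other 3, where chance alone gives about 1.65. The Tlr2 to Tlr4 ratio was 0.335 in SIRT5_WT replicate 1 against 0.400 to 0.412 in the other SIRT5_WT libraries. The same ratio was 0.450 in SIRT5_F101L replicate 1 against 0.370 to 0.379 in the other SIRT5_F101L libraries. The Irak2 to Irak3 ratio was 1.09 in Control replicate 3 against 0.827 to 0.870 in the other Control libraries.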

How the results depend on the processing

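Of 18 member results against Control, 16 kept their direction and their call in all 20 alternatives, and the other two are those of Tlr1, given above. With any 1 library left out, 6 members were called higher and 2 to 3 lower in each comparison with Control. Between the plasmids 0 to 2 members were called higher, with 2 (Tlr3 and Irak3) without SIRT5_F101L replicate 1. With replicate 1 of both plasmid groups left out, a choice made after seeing the data, 3 were called higher, the difference of Tlr1 between the plasmids was -0.022 and that of Ticam1 -0.00040, and the log2 ratio of Tlr2 to Tlr4 was 0.030 for SIRT5_WT against Control and -0.11 between the plasmids. The fitted difference of Irak2 between the plasmids, near 0, turned positive with RLE scaling (0.00051), upper-quartile scaling (0.00029) and DESeq2 (0.0011). With 1 library left out it ran from -0.051 to 0.033, that of Tlr1 from -0.021 to 0.62, of Tlr6 from -0.15 to 0.030 and of Ticam1 from -0.038 to 0.070. The difference of Irak3 ran from 0.13 to 0.26, of Tlr3 from 0.24 to 0.36 and of Tlr4 from 0.054 to 0.14. For Cd14 it ran from 0.11 to 0.27 and for Tlr2 from 0.081 to 0.15. The log2 ratio of Tlr2 to Tlr4 ran from -0.078 to 0.030 for SIRT5_WT against Control, from -0.078 to 0.044 for SIRT5_F101L against Control and from -0.043 to 0.057 between the plasmids. That of Irak2 to Irak3 ran from 0.54 to 0.69, 0.28 to 0.51 and -0.32 to -0.10. The cause of these changes was not tested. Scaling moved the median of all genes by less than 0.1 on the log2 scale. Counts of Tlr1, Tlr9, Tlr12 and Ticam2 were low, which limits the precision of their values. No paired analysis was possible because GEO's labels give no replicate number, donor or batch, and the numbers 1 to 4 used here only name the libraries of a group in accession order.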

Other observations

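The genes whose log2 CPM followed that of Tlr2 most closely over the 12 libraries, among 9781 genes ranked, were Chil1 (Pearson r 0.994), Nadk2 (0.993) and Antxr2 (0.993). Chil1, which encodes a chitinase-like glycoprotein of inflamed cartilage, stood at 7.33 CPM in Control, 86.1 in SIRT5_WT and 91.3 in SIRT5_F101L. Nadk2, a mitochondrial NAD kinase, stood at 16.2, 45.7 and 53.2 CPM. For Tlr3 they were Ston2 (0.991), Cep295 (0.961) and Dcp2 (0.949), and Ston2, an endocytic adaptor, stood at 3.25, 5.52 and 7.76 CPM. These are descriptions over 12 libraries that share 3 groups.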
